A study of Mus musculus with 16 samples.

Results

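The mitochondrial ribosome was followed through the mRNA of its protein subunits, the genes whose symbols start with Mrpl or Mrps and a number. The gene table listed 78 such genes among 45777, and 5 further symbols ending in -ps, which mark pseudogenes, were left out. All 78 had at least 1 read in every tumor and were among the 16209 genes tested. Of the 78, 51 belong to the large subunit and 26 to the small subunit. The remaining gene, Mrps36, carries a ribosomal name, but its protein is now assigned to the 2-oxoglutarate dehydrogenase complex of the citric acid cycle.

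B16F10 is a melanoma cell line from C57BL/6 mice, and tumors had been grown from it under the skin of lean C57BL/6J mice or of C57BL/6J-ob/ob mice, which lack leptin and become obese. The mice were 6 weeks old at injection. Tumors were collected either before therapy or after chemotherapy with etoposide (ETS), which causes DNA breaks by blocking topoisomerase. It was given at 20 mg per kg in 5 daily injections, and tumors were taken a day after the course. Each of the 4 groups held 4 tumors. Untreated tumors are labelled ctrl, and the paper describes them as taken before chemotherapy. For the sequencing, no untreated group taken after the course is described. Days of growth and the drug thus cannot be told apart, and an ETS effect below means treated against untreated tumors. All tumors come from the same cell line, and a whole tumor also holds cells of the host, so that fewer cells of a type and less RNA per cell cannot be told apart.

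Mitochondria carry their own ribosome, which translates the 13 proteins encoded by mitochondrial DNA, all of them parts of the respiratory chain or of ATP synthase. Its protein subunits are encoded in the nucleus, made in the cytosol and imported. Some have counterparts in bacterial ribosomes, and others exist only in mitochondria. Without this translation a cell cannot build a working respiratory chain.

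Total counts were between 47199949 and 61655287 reads per tumor, of which the 78 genes took between 0.333% and 0.470%. All 10 melanocyte markers examined, such as Oca2, passed the filter in every tumor. Host cells differed between groups: the summed level of macrophage markers was 413 to 1325 CPM (counts scaled to the size of the library) in untreated lean tumors, 50.1 to 422 CPM in treated lean tumors, 40.7 to 257 CPM in untreated obese tumors and 358 to 1053 CPM in treated obese tumors. The 7 T-cell markers were all at 0 in at least 1 tumor. RNA encoded by mitochondrial DNA took 4.19% to 6.10% of the counts in untreated lean tumors and 9.87% to 14.6% in treated ones. In obese tumors these shares were 4.11% to 5.59% and 4.76% to 11.8%.

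Per length of transcript, the subunits were not listed at equal levels. On the authors' TPM scale (which corrects counts for transcript length), the mean over 16 tumors ran from 8.48 for Mrpl1 to 361 for Mrpl12, with a median of 65.8, and 73 of the 78 genes were at 20 TPM or more. Mrpl12 encodes a protein of the stalk that recruits translation factors, and its TPM was 355 ± 42.7 in untreated and 356 ± 38.5 in treated lean tumors, and 403 ± 57.6 in untreated and 328 ± 51.5 in treated obese tumors (mean ± SD, n = 4 each). Next in order were Mrpl13, with a mean of 222 TPM, and Mrpl30, with 203 TPM, both counterparts of bacterial large-subunit proteins. In lean tumors after ETS, Mrpl13 had 199.7 ± 17.3 TPM and Mrpl30 had 186 ± 9.68 TPM. These means differed by less than the SD of Mrpl13 but by more than the SD of Mrpl30. At the low end, Mrpl1, a protein of the mobile L1 stalk, was followed by Mrpl35 at 16.3 TPM and Mrpl41 at 18.7 TPM. The mRNA levels thus spanned a 42.5-fold range from Mrpl1 to Mrpl12, and the number of copies of each protein per ribosome was not measured.

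Mrps18a, Mrps18b and Mrps18c are paralogs that derive from the same ancestral protein. They occupy different places in the ribosome, Mrps18a in the large subunit and the others in the small subunit. Their mean TPM in lean tumors before therapy was 94.8 ± 6.40 for Mrps18a, 72.6 ± 7.15 for Mrps18b and 65.6 ± 3.43 for Mrps18c. Reads of near-identical stretches of paralogs can be shared or split by the counting.

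The promoters of 69 of the 78 genes were found in RefSeq (GRCm38.p6), as 300 bases each, from 250 before to 50 after an annotated start, and 5 motifs were searched on both strands. The letters AAGATGGCG, the core bound by YY1, were in the promoters of 8 genes (11.6%), against 3.31% of the 11488 tested genes with a promoter. The letters CCGGAAGT, bound by factors of the ETS family (a name unrelated to the drug), were in 12 (17.4%), against 8.56%. The core palindrome bound by NRF1, a regulator of nuclear genes for mitochondrial proteins, was in 3 (4.35%), against 2.13%. The CCAAT box was in 27 (39.1%), against 43.1%, and the MYC E-box CACGTG in 5 (7.25%), against 11.4%. These are matches of letters, not binding sites, and a match in 1 promoter can hold several motifs. The YY1 windows are printed because 6 of the 8 lie on the gene's strand within 36 bases after the start, and because 3 of their genes, Mrps24, Mrpl42 and Mrps18a, carry results below. The Mrps11 window also lies within the span of Mrpl46 (chr7:78775341-78783089), a gene on the other strand, so its letters cannot be assigned to Mrps11 alone. Each window is 30 bases, 5′ to 3′ on the gene's strand, with the motif in capitals:
Mrpl35 (chr6:71823742-71823771, minus strand): ggcaggctgcAAGATGGCGgcttccatctt
Mrpl37 (chr4:107066821-107066850, minus strand): tgcacgggcaAAGATGGCGgcgtccaggta
Mrpl42 (chr10:95501903-95501932, minus strand): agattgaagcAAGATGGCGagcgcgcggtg
Mrps18a (chr17:46111005-46111034, plus strand): ggtgcgttccAAGATGGCGgccctcagggc
Mrps24 (chr11:5707652-5707681, minus strand): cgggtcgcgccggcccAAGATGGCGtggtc
Mrps27 (chr13:99344790-99344819, plus strand): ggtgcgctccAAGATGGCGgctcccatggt
Mrpl36 (chr13:73330968-73330997, plus strand): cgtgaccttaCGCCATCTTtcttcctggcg
Mrps11 (chr7:78783013-78783042, plus strand): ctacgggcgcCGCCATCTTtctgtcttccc

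The 3 genes with the NRF1 core, in capitals, are shown for comparison, since Mrpl39 and Mrpl9 changed in several comparisons below, and in all 3 the match lies before the start:
Mrpl32 (chr13:14613105-14613134, minus strand): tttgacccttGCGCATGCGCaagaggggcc
Mrpl39 (chr16:84735350-84735379, minus strand): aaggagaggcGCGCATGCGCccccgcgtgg
Mrpl9 (chr3:94443298-94443327, plus strand): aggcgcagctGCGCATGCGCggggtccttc

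Of the 12 genes with the ETS-family letters 4 fell and 0 rose after ETS in obese tumors (median -0.20). Of the 57 without them 15 fell and 2 rose (median -0.10), where 19.0% of all tested genes fell. A link of the letters to the falls was not tested. Mrps22 had the largest fall after ETS in obese tumors among the 78 genes, and the 250 bases before its start are printed with the ETS-family letters in capitals, 11 bases before the start:
Mrps22 (chr9:98601680-98601929, minus strand): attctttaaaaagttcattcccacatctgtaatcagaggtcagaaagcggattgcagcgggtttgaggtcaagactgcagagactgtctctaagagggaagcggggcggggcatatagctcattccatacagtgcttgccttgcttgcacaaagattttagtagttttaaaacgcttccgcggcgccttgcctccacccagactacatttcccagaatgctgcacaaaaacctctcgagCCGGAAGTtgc

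Of the 69 genes with a promoter, 26 (37.7%) started head to head with another gene, within 1000 bases and on opposite strands, against 19.8% of the tested genes with a promoter. Mrpl46 and Mrps11, a large-subunit and a small-subunit gene, form such a pair with each other. The 41 bases between their starts are shown because they lie before the starts of both genes:
Mrpl46-Mrps11 (chr7:78783090-78783130, plus strand): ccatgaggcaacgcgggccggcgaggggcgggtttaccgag
Other partners include Ndufb5, a subunit of respiratory complex I, beside Mrpl47, and Twnk, the mitochondrial DNA helicase, beside Mrpl43. After ETS in lean tumors, 5 of the 23 partners that were tested and are not themselves mitochondrial ribosomal genes rose (21.7%) and 7 fell (30.4%), with a median log2 fold change of -0.18. Of the 23 mitochondrial ribosomal genes they face, 5 rose (21.7%) and 0 fell, with a median of 0.18. Of all tested genes 21.0% rose and 22.8% fell. The difference between the partners and the genes they face was not tested.

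The mean log2 CPM over the 78 genes was computed for each tumor as a summary of their level. In untreated lean tumors it was 5.41, 5.31, 5.14 and 5.18, and in treated ones 5.46, 5.62, 5.39 and 5.40. In obese tumors before therapy it was 5.37, 5.46, 5.69 and 5.55, and after ETS it was 5.39, 5.46, 5.34 and 5.23. Lean tumors were lowest before therapy and obese tumors highest, and the ranges before and after ETS overlapped in both hosts.

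**Figure D1:**
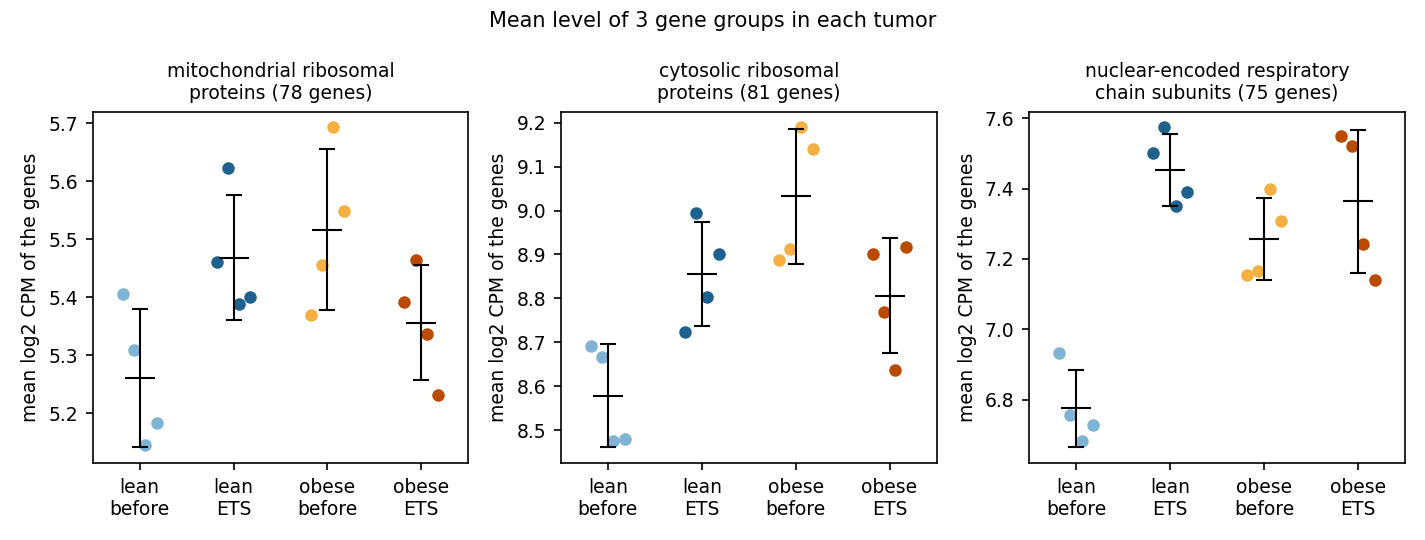
Mean log2 CPM (TMM scaling) of the mitochondrial ribosomal proteins, the cytosolic ribosomal proteins and the nuclear-encoded respiratory chain subunits in each tumor (points, 4 per group), with mean and SD as bars. For mitochondrial ribosomal proteins the lean groups averaged 5.26 before therapy and 5.47 after ETS and the obese groups 5.52 and 5.36, an order that is reversed for the lean pair on log2(TPM + 1).

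The first comparison asked how subunit expression changed in lean tumors after ETS. With edgeR's quasi-likelihood test and Benjamini-Hochberg adjustment over all tested genes, 26 of the 78 genes rose (33.3%) and 0 fell, where 21.0% of all tested genes rose and 22.8% fell. At an unadjusted p under 0.05, 35 were higher and 1 was lower, where 25% of all tested genes were higher and 27.0% lower, and limma-voom called 35 higher and 1 lower (25.6% and 27.8% of all tested genes). Their median log2 fold change was 0.22, a fold of 1.16, against -0.01 for all tested genes, and 62 of the 78 values were above 0. In the authors' TPM values the median was below 0, at -0.15 on log2(TPM + 1), while all tested genes shifted by -0.28. On that scale limma called 4 of the 78 higher (5.13%) and 23 lower (29.5%), where 8.33% of all tested genes were higher and 44.9% lower. Relative to the median of all genes, the 78 genes were thus higher by 0.23 on the count scale and by 0.13 on the TPM scale. In 25 genes all 4 treated tumors lay above all 4 untreated ones (against 20.8% of all tested genes) and in 2 below (against 20.3%). None of the 78 reached a 2-fold change in any of the 5 comparisons.

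The largest rise in lean tumors was that of Mrpl34 (chr8:71464926-71465753, gene 94065), a very short protein of the large subunit with a bacterial counterpart. Its CPM was 24.8, 24.5, 21.0 and 20.1 before therapy and 37.1, 44.3, 38.4 and 35.3 after ETS. All 4 tumors after ETS lay above all 4 before therapy, and the log2 fold change was 0.78 (SE 0.12, adjusted p = 0.000192 by edgeR). On log2(TPM + 1) it was 0.40.

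Mrps21 (chr3:95862634-95871514, gene 66292), a small-subunit protein with a bacterial counterpart, followed. Its CPM was 37.0, 31.6, 33.6 and 32.3 before therapy and 53.3, 52.8, 54.5 and 56.0 after ETS. The tumors within each group were close together and the groups did not overlap (log2 fold change 0.69, SE 0.11, adjusted p = 0.000298 by edgeR). Mrps6 (chr16:92058336-92112227, gene 121022), another small-subunit protein with a bacterial counterpart, had 35.4, 30.8, 33.0 and 31.3 CPM before therapy and 52.3, 54.0, 52.2 and 49.7 CPM after ETS, again without overlap (log2 fold change 0.67, SE 0.15, adjusted p = 0.00302 by edgeR). The gene Slc5a3 lies within the span of Mrps6, so reads of that gene may be counted for either.

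The rises were spread over the ribosome. Of the 51 large-subunit genes 17 rose (33.3%, against 21.0% of all tested genes) and 0 fell, with a median of 0.23. Of the 26 small-subunit genes 8 rose (30.8%) and 0 fell, with a median of 0.19. Proteins with a bacterial counterpart (16 of 46 rose, 34.8%, median 0.23) and proteins found only in mitochondria (9 of 31 rose, 29%, median 0.20) had like values. Mrps12, whose protein sits at the decoding centre, was among the smaller rises, at 0.28 (SE 0.10, adjusted p = 0.0342 by edgeR), and -0.09 on log2(TPM + 1). Mrps36, the enzyme subunit, had a log2 fold change of 0.31 (SE 0.11, adjusted p = 0.0295 by edgeR), and -0.06 on log2(TPM + 1). Of the 26 genes that rose, 7 had a value below 0 on log2(TPM + 1), and under DESeq2's size factors or without the mitochondrially encoded genes none did.

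The count in lean tumors rested in part on lean tumor 2 after ETS, which had the highest mean level. Without it, 17 genes rose (21.8%, against 16.8% of all tested genes) and 0 fell. Without each other tumor in turn, between 19 and 35 rose, where 17.3% to 21.6% of all tested genes rose. Of the 9 macrophage markers tested 7 fell (77.8%, against 22.8% of all tested genes), and their median log2 fold change was -2.15. With the macrophage level as a covariate, 33 of the 78 genes rose (42.3%, against 18.6% of all tested genes) and 0 fell. Of the 10 melanocyte markers 3 rose (30%, against 21.0% of all tested genes) and 0 fell, with a median of 0.47 over the list. With their level as a covariate 17 of the 78 genes rose (21.8%, against 17.4%) and 0 fell. Short genes as a class also rose in this comparison, with a median of 0.20 over the 4053 shortest of all tested genes, and the part of length in the result was not tested.

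**Figure D2:**
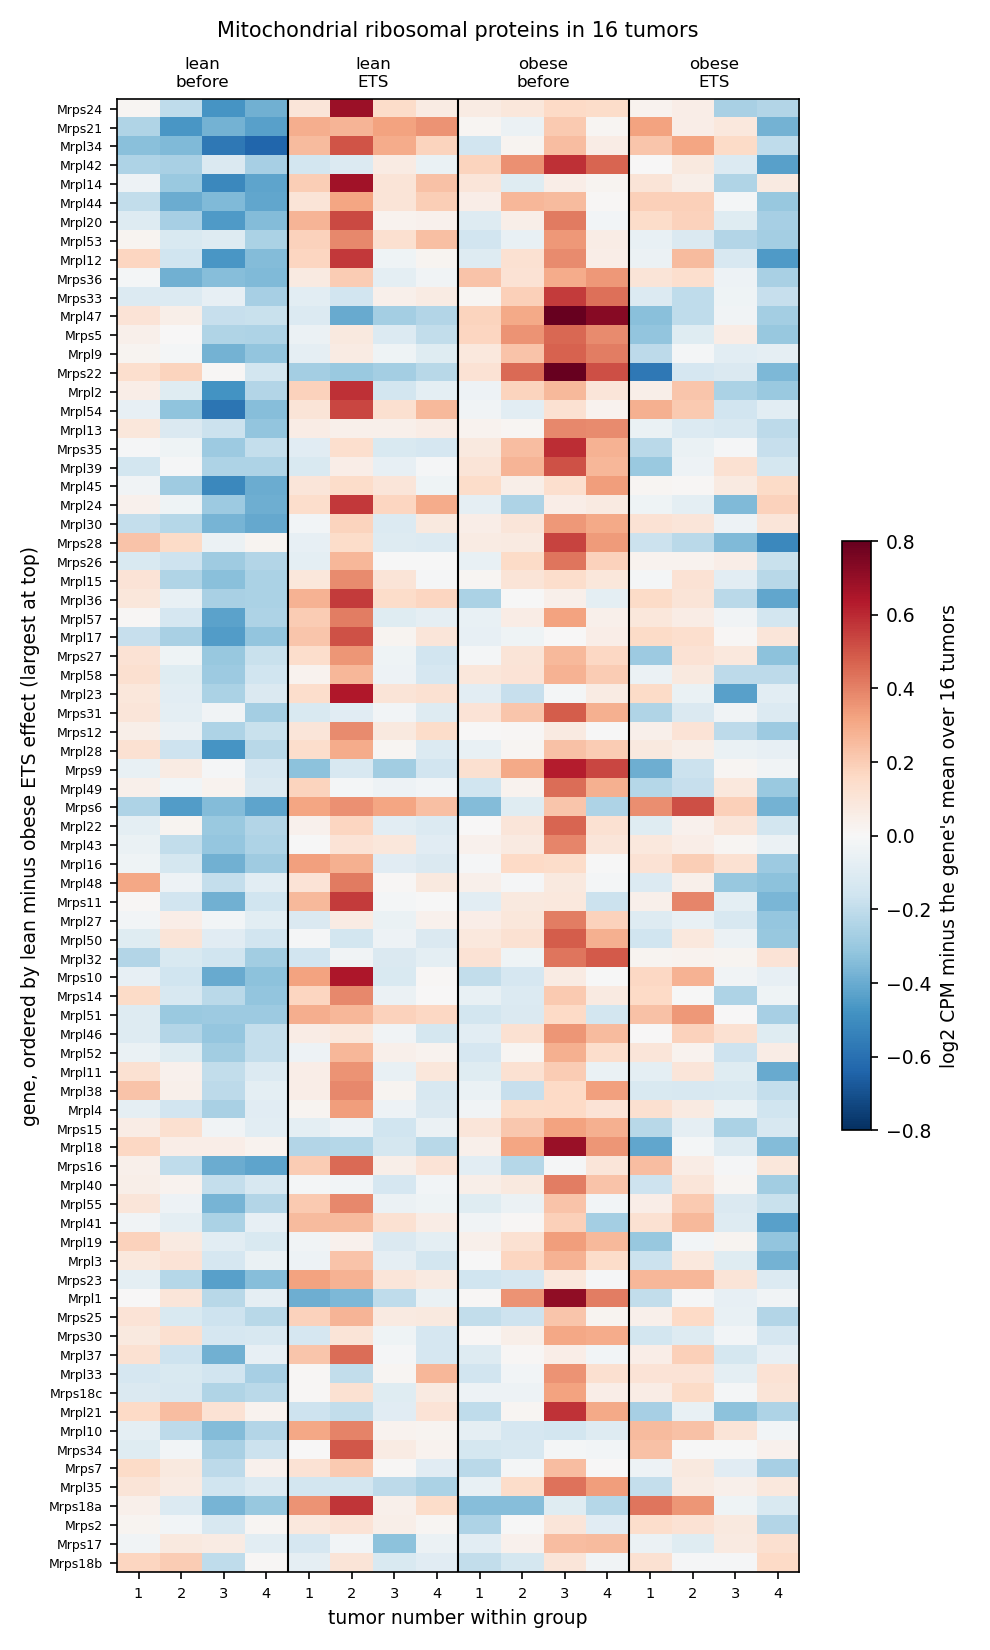
Log2 CPM of each of the 78 genes in the 16 tumors, as the difference from the gene's mean over all tumors (colour, red higher), with genes ordered by the lean minus obese ETS effect, from 0.73 for Mrps24 at the top to -0.22 for Mrps18b at the bottom. Lean tumors 2 to 4 before therapy are mostly blue and obese tumors 3 and 4 before therapy mostly red. Lean tumor 1 before therapy, at a mean log2 CPM of 5.41, was higher than lean tumors 2 to 4. Lean tumor 2 after ETS stands out among the lean tumors after ETS.

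The same comparison in obese tumors went the other way. After ETS, 23 of the 78 genes fell (29.5%) and 2 rose, where 19.0% of all tested genes fell and 21.2% rose. At an unadjusted p under 0.05, 26 were lower and 2 higher, where 23.3% of all tested genes were lower and 25.8% higher. In 20 genes all 4 treated tumors lay below all 4 untreated ones (against 17.7% of all tested genes) and in 2 above (against 16.4%). The median log2 fold change was -0.13, against 0.01 for all tested genes, and 16 of the 78 values were above 0. On log2(TPM + 1) the median was -0.22, where all tested genes shifted by -0.05. There 36 genes were lower (46.2%, against 20.6% of all tested genes) and 1 higher (against 15.9%), so the direction was the same under this scaling and under DESeq2's size factors (22 lower and 2 higher).

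Mrps22 (chr9:98588730-98601679, gene 64655), a small-subunit protein found only in mitochondria, fell most. Its CPM was 30.2, 38.1, 55.1 and 39.8 before therapy and 18.7, 25.3, 25.6 and 21.6 after ETS. All 4 treated tumors lay below all 4 untreated ones, and the log2 fold change was -0.84 (SE 0.15, adjusted p = 0.00068 by edgeR). Its untreated obese tumors were also the most widely spread, with an SD of 10.4 CPM.

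Mrpl47 (chr3:32727497-32736755, gene 74600), the counterpart of a bacterial protein near the peptide exit tunnel, had 20.3, 22.2, 32.7 and 29.8 CPM before therapy and 14.2, 15.6, 17.6 and 14.9 CPM after ETS. The groups did not overlap (log2 fold change -0.75, SE 0.14, adjusted p = 0.00101 by edgeR). Mrpl18 (chr17:12911345-12917787, gene 67681), the counterpart of a bacterial protein of the central protuberance, had 55.5, 66.9, 86.9 and 68.7 CPM before therapy and 40.4, 53.2, 50.1 and 42.3 CPM after ETS (log2 fold change -0.58, SE 0.12, adjusted p = 0.00146 by edgeR). Its span overlaps that of Tcp1, a chaperonin subunit whose start lies 238 bases away on the other strand, and whether strand was used in counting is not given in the sources used here.

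Both genes that rose in obese tumors belong to the large subunit. Mrps18a (chr17:46111004-46128908, gene 68565) had 34.2, 34.2, 40.5 and 36.9 CPM before therapy and 58.1, 55.3, 42.3 and 39.7 CPM after ETS. Obese tumors 1 and 2 were clearly above the untreated group while tumor 4 lay within its range, and the log2 fold change was 0.42 (SE 0.14, adjusted p = 0.0276 by edgeR). Mrpl10 (chr11:97041582-97049213, gene 107732), which holds the stalk proteins to the ribosome, had 57.0, 54.6, 54.1 and 55.8 CPM before therapy and 71.3, 70.3, 64.3 and 59.0 CPM after ETS (log2 fold change 0.26, SE 0.09, adjusted p = 0.0394 by edgeR). Both calls were lost, leaving 0, without obese tumor 1 or 2 after ETS or without obese tumor 1, 2 or 4 before therapy, 1 gene was called without lean tumor 2 or 4 before therapy, and 5 genes rose without obese tumor 4 after ETS. The other paralogs of Mrps18a had log2 fold changes of 0.13 (Mrps18b) and -0.00 (Mrps18c) and did not pass the test.

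The falls included 15 of the 51 large-subunit genes (29.4%) and 8 of the 26 small-subunit genes (30.8%), with medians of -0.14 and -0.09. Of all tested genes 19.0% fell. Without each tumor in turn, 16 to 26 of the 78 genes fell, where 13.3% to 19.5% of all tested genes fell. In obese tumors the macrophage markers moved opposite to lean tumors, with 7 of 9 higher (77.8%, against 21.2% of all tested genes). Their median log2 fold change was 2.54, and all 9 fibroblast markers rose, with a median of 2.76. With the macrophage level as a covariate 9 of the 78 genes fell (11.5%) and 0 rose, at a median of -0.26, and in the same fit 7.38% of all tested genes fell and 5.8% rose. The part of host cells in the result was not tested beyond this fit.

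**Figure D3:**
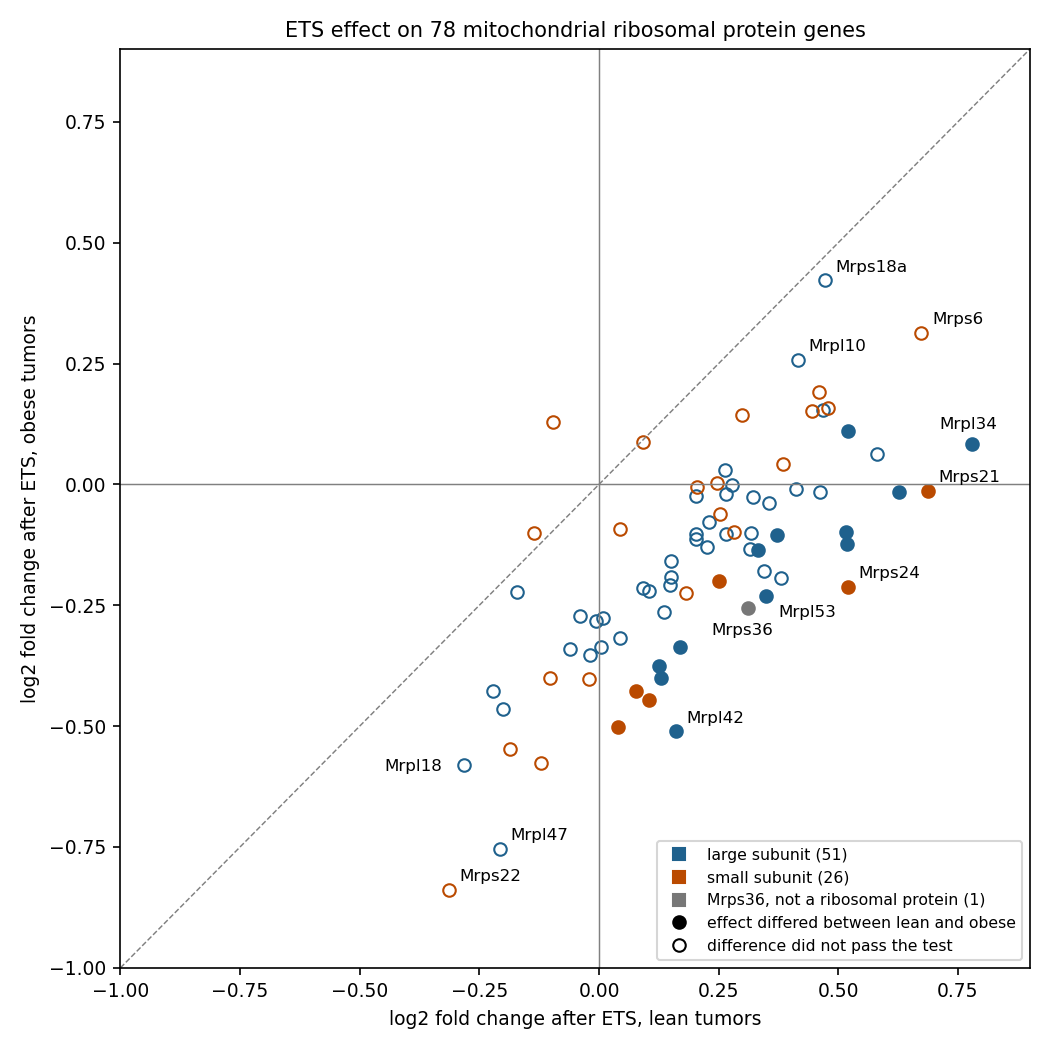
Log2 fold change after ETS of the 78 genes in lean tumors (x axis) against obese tumors (y axis), on the TMM-scaled counts, coloured by subunit and filled where the effect differed between hosts (19 genes). The points form a band below the dashed line of equal effects, with 47 genes above 0 in lean and below 0 in obese tumors; on log2(TPM + 1) the median in lean tumors is -0.15.

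The difference between the ETS effects was then tested directly, as lean minus obese. It was above 0 for 76 of the 78 genes and passed the test for 19 (24.4%), all of them in favour of lean tumors, where 6.35% of all tested genes passed in that direction and 10.1% in the other. The median difference was 0.36, against 0.05 for all tested genes. On log2(TPM + 1) the median was 0.08, while all genes shifted by -0.16, and none of the 19 changed sign. There 4 genes passed the test, 3 higher (3.85%, against 1.41% of all tested genes) and 1 lower (1.28%, against 13.8%), and the lower one was Mrps18b at -0.50 (adjusted p = 0.0144 by limma). At an unadjusted p under 0.05, 44 genes were higher and 0 lower, where 14.7% of all tested genes were higher and 15.4% lower. Of the other tools, limma-voom called 19 higher and 0 lower (9.89% and 11.8% of all tested genes), and DESeq2 called 27 and 0 (8.72% and 11.9%).

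The 19 genes reached this difference in different ways. For 11 of them, among them Mrpl34, Mrps21, Mrps24 and Mrpl53, the rise in lean tumors passed the test and the change in obese tumors did not. For 7, Mrpl13, Mrpl39, Mrpl42, Mrpl9, Mrps33, Mrps35 and Mrps5, the fall in obese tumors passed and the change in lean tumors did not. Mrps26, a small-subunit protein found only in mitochondria, passed the test of the difference (0.45, adjusted p = 0.0427 by edgeR) with neither ETS effect passing. It was also higher in obese than in lean tumors before therapy (0.39, adjusted p = 0.0109 by edgeR). No gene passed both as a rise in lean and as a fall in obese tumors, and 2, Mrpl10 and Mrps18a, rose in both.

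Mrps24 (chr11:5703982-5707701, gene 64660), at the mRNA entry site of the small subunit, had the largest difference. In lean tumors its CPM was 54.2, 46.6, 38.7 and 41 before therapy and 57.4, 86.2, 59.3 and 56.1 after ETS. In obese tumors it was 56.1, 57.2, 60.0 and 59.3 before therapy and 54.7, 55.5, 44.8 and 45.7 after ETS. Treated lean tumors were all above and treated obese tumors all below their untreated group, and the difference of the log2 fold changes was 0.73 (SE 0.19, adjusted p = 0.0174 by edgeR), with lean tumor 2 standing far above the other 3. Mrps21 came next at 0.70 (SE 0.16, adjusted p = 0.00755 by edgeR), and its obese tumors, at 44.2, 42.4, 50.6 and 44.2 CPM before therapy and 54.5, 45.3, 46.3 and 33.7 CPM after ETS, had no common direction. Mrpl34 followed at 0.70 (SE 0.17, adjusted p = 0.0118 by edgeR), with obese tumors at 28.1, 31.7, 37.1 and 32.5 CPM before therapy and 36.4, 38.8, 34.7 and 27.1 CPM after ETS.

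**Figure D4:**
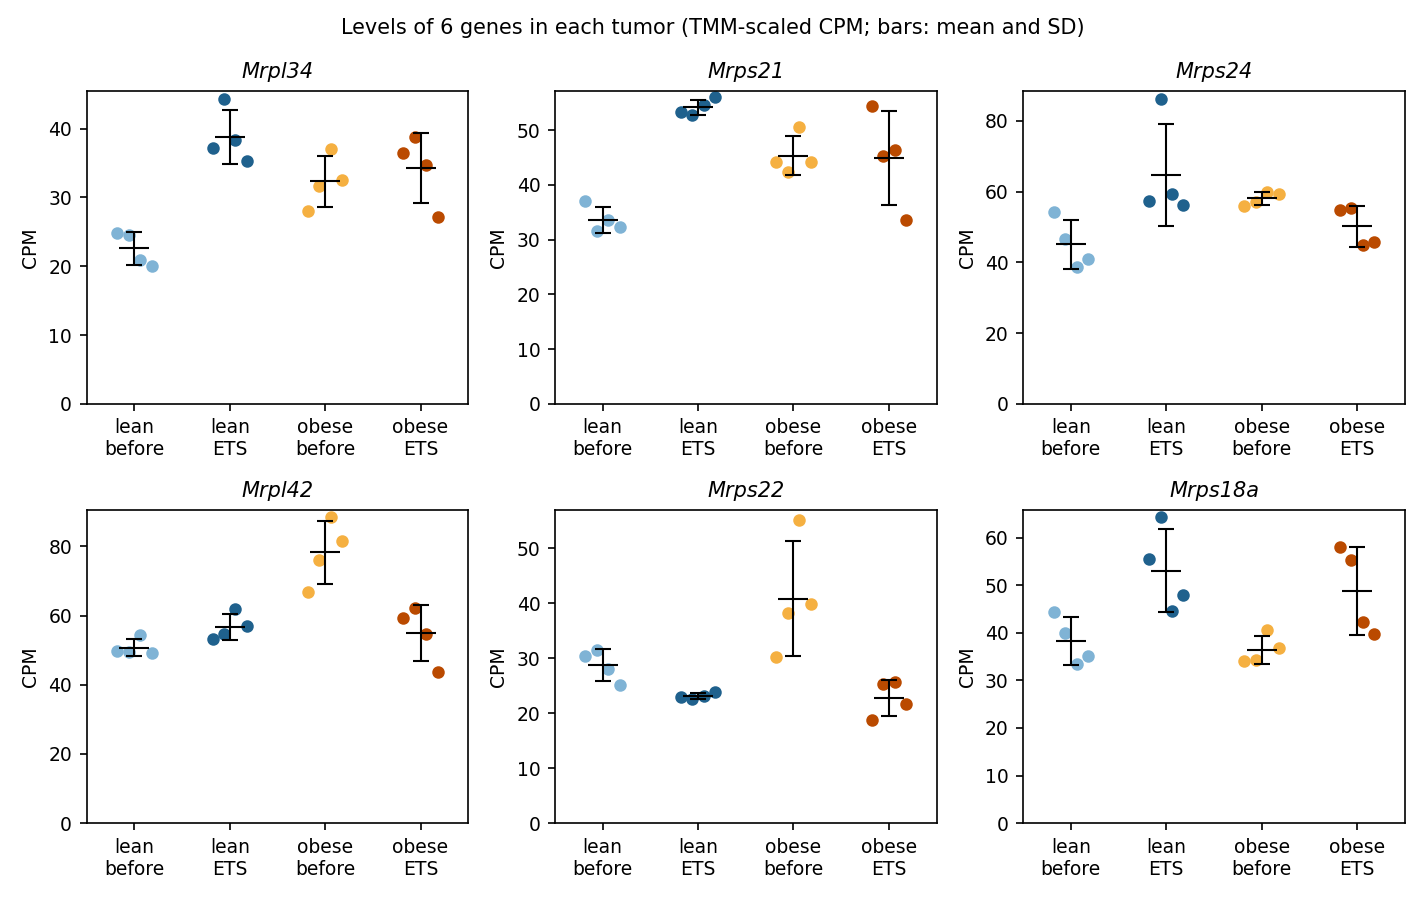
CPM (TMM scaling, axis from 0) of Mrpl34, Mrps21, Mrps24, Mrpl42, Mrps22 and Mrps18a in each tumor (points, 4 per group), with mean and SD as bars. Mrpl34 and Mrps21 are lowest in lean tumors before therapy, Mrpl42 and Mrps22 are highest in obese tumors before therapy, and Mrps18a is higher after ETS in both hosts.

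Across the 78 genes the log2 fold changes in lean and obese tumors, which share no tumor, had a Pearson correlation of 0.74 and a Spearman correlation of 0.73, as a description across genes that are not independent and share base composition and length. Over all 16209 tested genes these were 0.05 and 0.35. The genes that rose most in lean tumors thus tended to fall least in obese tumors, with the whole band displaced. In sign, 47 genes were above 0 in lean and below 0 in obese tumors, 15 were above 0 in both, 15 were below 0 in both, and Mrps18b was below 0 in lean and above 0 in obese tumors.

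The difference between hosts was weaker without some tumors. In place of 19 genes, 11 passed without lean tumor 2 after ETS (14.1%, against 4.13% of all tested genes) and 10 without lean tumor 4 before therapy (12.8%, against 3.64%). Between 13 and 27 passed without each of the others, where 4.29% to 8.42% of all tested genes passed in that direction. Host cells moved with the same contrast, since 8 of 9 macrophage markers had a lower ETS effect in lean than in obese tumors (88.9%, against 10.1% of all tested genes). Their median difference was -4.63. All 9 fibroblast markers (median -4.70) and 4 of 7 endothelial markers (57.1%, median -1.53) were also lower. With the macrophage level as a covariate the median difference of the 78 genes was 0.54 and 0 genes passed the test, where 24 of all 16209 tested genes passed in that direction. With the melanocyte level as a covariate 23 genes passed (29.5%, against 9.32%). The macrophage level followed the groups, at a mean log2 CPM of 6.27 in untreated and 3.71 in treated lean tumors, and 3.01 and 5.68 in obese tumors. A fit with this covariate can therefore hardly separate host cells from the contrast. The part of host cells in the result was not tested beyond these fits.

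Before therapy the subunits were higher in obese than in lean tumors. These untreated tumors also enter both ETS comparisons and the difference between them. That difference equals the host difference before therapy minus the host difference after ETS, so the calls are not separate findings. Of the 78 genes, 25 were higher (32.1%) and 0 lower, where 13.5% of all tested genes were higher and 12.9% lower. At an unadjusted p under 0.05, 43 were higher and 0 lower, where 19.7% of all tested genes were higher and 18.2% lower. DESeq2 called 29 higher and 0 lower (14.2% and 15.2% of all tested genes). The median log2 difference was 0.26, against 0.02 for all tested genes, and 74 of the 78 values were above 0. On log2(TPM + 1) it was 0.12, while all genes shifted by -0.08. There 7 genes were higher (8.97%, close to the 6.95% of all tested genes) and 0 lower (against 17.1%). In 26 genes all 4 obese tumors lay above all 4 lean tumors (33.3%, against 16% of all tested genes), and in 0 all 4 lay below (against 14.4%).

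Mrpl42 (chr10:95480805-95501949, gene 67270), a large-subunit protein found only in mitochondria, differed most. Its CPM was 49.7, 49.4, 54.4 and 49.1 in lean hosts, against 66.8, 76.1, 88.3 and 81.6 in obese hosts. The lean tumors were nearly equal and every obese tumor was above them (log2 difference 0.63, SE 0.11, adjusted p = 0.000575 by edgeR). After ETS it was 53.3, 54.7, 61.8 and 56.8 CPM in lean and 59.2, 62.2, 54.6 and 43.8 CPM in obese tumors, and the hosts overlapped. Mrpl47 had 19.4, 18.6, 15.8 and 15.9 CPM in lean tumors before therapy, all below the obese values given above (0.59, SE 0.14, adjusted p = 0.00659 by edgeR). Mrpl34 was higher in obese tumors by 0.52 (SE 0.12, adjusted p = 0.00554 by edgeR). All 7 genes that fell in obese tumors and passed the test of the difference between hosts were also higher in obese tumors before therapy, and both comparisons share those obese tumors.

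Of the 9 macrophage markers 8 were lower in obese tumors before therapy (88.9%, against 12.9% of all tested genes), with a median log2 difference of -3.27 over the list. Of the 10 melanocyte markers 6 were lower (60%), with a median of -0.73. With the macrophage level as a covariate 10 of the 78 genes were higher (12.8%, against 4.32% of all tested genes) and 0 lower, and with the melanocyte level 22 were higher (28.2%, against 9.66%) and 0 lower. Short genes as a class were higher too, as given below, and the part of length was not tested.

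After ETS, 1 of the 78 genes, Mrpl53, was lower in obese than in lean tumors (1.28%) and 0 were higher, where 2.3% of all tested genes were lower and 3.28% higher. At an unadjusted p under 0.05, 10 were lower and 0 higher, where 11.6% of all tested genes were lower and 13.5% higher. DESeq2 called 3 lower (3.85%, against 5.88%) and 0 higher, and limma-voom called 0 in either direction. In 5 genes all obese tumors lay below all lean ones (against 6.85% of all tested genes) and in 1 above (against 6.39%). The median log2 difference was -0.11, against 0.00 for all tested genes, and it was 0.03 on log2(TPM + 1), where all genes shifted by 0.10. Mrpl53 (chr6:83109108-83109932, gene 68499), a large-subunit protein found only in mitochondria, had 51.4, 59.1, 49.3 and 53.4 CPM in lean and 43.4, 41.7, 38.4 and 37.4 CPM in obese tumors, without overlap (log2 difference -0.41, SE 0.10, adjusted p = 0.0372 by edgeR). The call was lost, leaving 0, without any 1 of the lean tumors after ETS or without obese tumor 3 or 4 after ETS. Its span overlaps Ccdc142, and 25 of the 78 genes overlap another annotated gene. Without those 25, the other 53 genes had medians of 0.23 after ETS in lean tumors, -0.14 in obese tumors, 0.37 for the difference and 0.28 between hosts before therapy.

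Mitochondrial ribosomal transcripts are short, and length moved with these comparisons. With length estimated as counts divided by TPM, their median was at percentile 14.2 of the tested genes, and 71 of the 78 were below the median. Across all tested genes, the Spearman correlation of length with the log2 difference was -0.24 for ETS in lean tumors, 0.01 in obese tumors, -0.28 for the difference between hosts and -0.22 for obese against lean tumors before therapy. Among the 4053 shortest genes, which hold 59 of the 78, the median of all genes was 0.20 in lean tumors, 0.27 for the difference and 0.21 before therapy. The 59 mitochondrial ribosomal genes among them had 0.23, 0.36 and 0.27. In obese tumors the 4053 genes had -0.02 and the 59 genes -0.14. The medians of short genes thus had the same sign as those of the 78 genes in lean tumors, for the difference between hosts and before therapy. The part of length in the result was not tested.

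**Figure D5:**
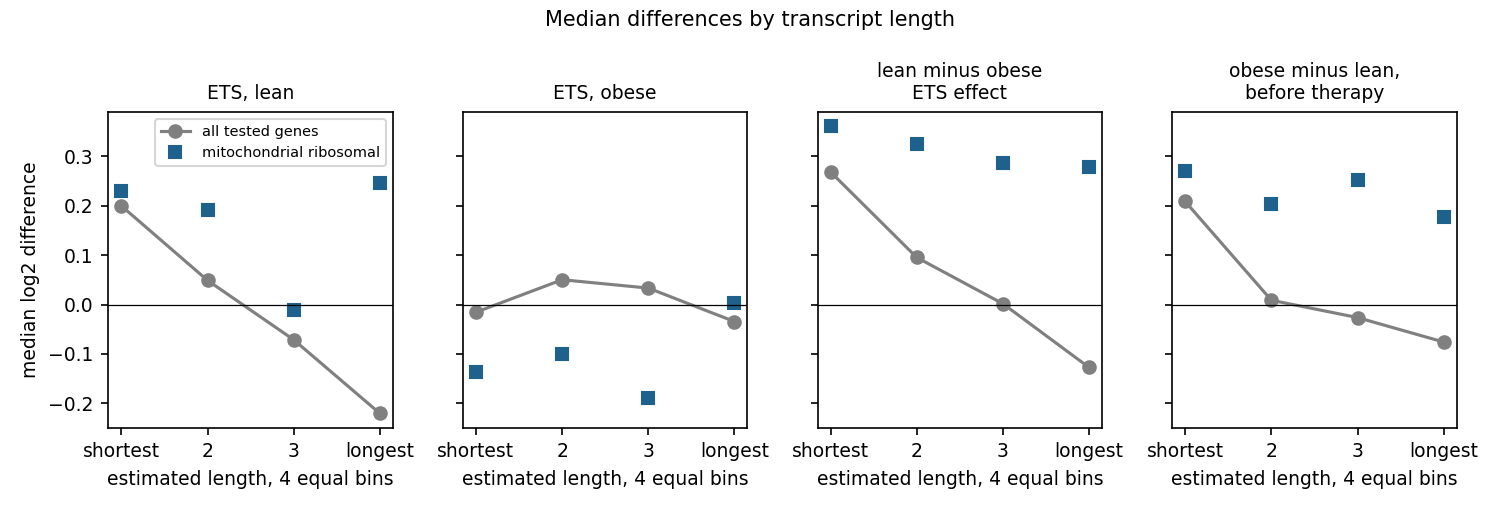
Median log2 difference (TMM scale) of all tested genes (grey circles and line) and of the mitochondrial ribosomal genes (blue squares) in 4 equal bins of estimated transcript length, in 4 comparisons, where the bins hold 59, 12, 4 and 3 of the 78 genes. In the bin of shortest genes the medians after ETS in lean tumors were 0.20 and 0.23, and in obese tumors -0.02 and -0.14.

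Related gene groups were compared to place the 78 genes. Their counts are read against all tested genes, of which 21.0% were called as rises and 22.8% as falls with lean hosts. With obese hosts these shares were 21.2% and 19.0%. The cytosolic ribosomal proteins, which build the ribosome of the cytosol, followed a like course, with 35 of 81 higher and 0 lower after ETS in lean tumors (median 0.28, and -0.10 on log2(TPM + 1)). In obese tumors 0 were higher and 28 lower (median -0.24). Of them, Rps27l rose by 0.87 in lean tumors (adjusted p = 3.91e-05 by edgeR) and Rpl26 fell by 0.55 in obese tumors (adjusted p = 0.00822 by edgeR). Before therapy 62 of the 81 were higher in obese tumors (76.5%, against 13.5% of all tested genes).

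Nuclear-encoded respiratory chain and ATP synthase subunits, the partners of what mitochondrial ribosomes make, rose more. In lean tumors 74 of 75 rose (median 0.67, and 0.30 on log2(TPM + 1)) and in obese tumors 5 rose and 0 fell (median 0.14, and 0.03 on log2(TPM + 1)). Uqcrh of complex III rose by 1.16 in lean tumors (adjusted p = 1.22e-05 by edgeR), and Ndufa13 of complex I by 0.54 in obese tumors (adjusted p = 0.0139 by edgeR). The 13 mRNAs encoded by mitochondrial DNA, which mitochondrial ribosomes translate, rose in 13 cases in lean tumors (median 1.42) and in 10 in obese tumors (median 0.91), and the difference between hosts passed the test for 0 of them, with a median of 0.56. The obese tumors after ETS were split, with summed levels of 127090, 123440, 62695 and 45199 CPM against 39780 to 53841 CPM before therapy, so that tumor 4 lay within the untreated range. ND1, a subunit of complex I, rose by 1.54 in lean and by 1.19 in obese tumors (adjusted p = 0.0017 and 0.00943 by edgeR). Its obese tumors had 11641, 13216, 6259 and 4153 CPM after ETS against 2901 to 4231 CPM before, with the same tumor inside the range.

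The difference between gene groups within a tumor does not depend on the scaling of the tumor. The mean log2 CPM of the 78 genes minus that of the respiratory chain subunits was -1.52 ± 0.04 in untreated and -1.99 ± 0.04 in treated lean tumors, and -1.74 ± 0.04 in untreated and -2.01 ± 0.12 in treated obese tumors (mean ± SD, n = 4 each). Treated tumors lay below untreated ones in both hosts, without overlap, from -2.04 to -1.95 against -1.54 to -1.45 in lean tumors and from -2.16 to -1.91 against -1.79 to -1.71 in obese tumors. Relative to the mRNAs encoded in the mitochondrion, the 78 genes went from -5.40 ± 0.22 to -6.62 ± 0.20 in lean tumors, without overlap, and from -5.16 ± 0.33 to -6.09 ± 0.67 in obese tumors, with overlap. Relative to cytosolic ribosomal proteins, the values before and after ETS overlapped in both hosts, and the obese tumors before therapy, at -3.59 to -3.46, lay below the lean ones, at -3.36 to -3.29. Large minus small subunit was 0.13 ± 0.02 in untreated and 0.16 ± 0.01 in treated lean tumors, without overlap, and 0.16 ± 0.01 in untreated and 0.15 ± 0.03 in treated obese tumors.

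Genes that build or serve the mitochondrial ribosome are given list by list, to be read against the shares of all tested genes above. Of 5 ribosomal proteins with other names, 1 rose in lean tumors (20%, close to the 21.0% of all tested genes) and 0 fell. The rise was that of Aurkaip1 (0.52, adjusted p = 0.00569 by edgeR). In obese tumors 0 rose and 2 fell (40%, against 19.0%). Dap3, a GTP-binding protein of the small subunit, was among the falls (-0.29, adjusted p = 0.0418 by edgeR). Among the 27 assembly factors, the lean comparison held 4 rises and 4 falls (14.8% each, below the shares of all tested genes, median -0.09), and the obese comparison 2 rises (7.41%) and 8 falls (29.6%, median -0.14). Mpv17l2, which acts in ribosome assembly, rose in both hosts, by 1.08 in lean tumors (adjusted p = 0.000439 by edgeR) and by 0.75 in obese tumors (adjusted p = 0.00536 by edgeR). Tfb1m, the methyltransferase of the small ribosomal RNA, fell by 0.47 in obese tumors (adjusted p = 0.0163 by edgeR), and Mettl17 fell by 0.62 in lean tumors (adjusted p = 0.0246 by edgeR).

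Among the 15 translation factors, 1 rise and 1 fall were called with lean hosts (6.67% each), and 0 rises and 4 falls (26.7%) with obese hosts. Mtif3, an initiation factor, rose by 0.29 in lean tumors (adjusted p = 0.0375 by edgeR), Mtrf1, a release factor, fell in both hosts, by 0.40 in lean and 0.64 in obese tumors (adjusted p = 0.0434 and 0.00451 by edgeR), and Tufm, the elongation factor, had 0.19 and -0.11 and did not pass the test. For the 20 genes of mitochondrial tRNA charging the counts were 1 rise (5%, Fars2 at 0.42, adjusted p = 0.0352 by edgeR) and 2 falls (10%) with lean hosts, and 0 rises and 5 falls (25%) with obese hosts. Gatc, a subunit of the amidotransferase that completes glutamine tRNA, fell by 0.50 in lean and by 0.71 in obese tumors (adjusted p = 0.00302 and 0.000341 by edgeR). For the 20 genes of mitochondrial RNA synthesis and processing they were 5 rises (25%) and 2 falls (10%) with lean hosts, and 0 rises and 4 falls (20%) with obese hosts. Hsd17b10, a subunit of the RNase that processes mitochondrial transcripts, rose by 0.58 in lean tumors (adjusted p = 0.00317 by edgeR), whereas Polrmt, the RNA polymerase of mitochondria, had -0.11 in lean and -0.14 in obese tumors and did not pass the test.

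Of the 9 regulators of mitochondrial gene expression tested, 6 fell with lean hosts and 7 with obese hosts, and 1 rose with each. Nrf1 fell by 0.46 in lean and by 0.59 in obese tumors (adjusted p = 0.000719 and 0.000159 by edgeR), and Myc, an activator of ribosomal genes, by 0.80 and 0.71 (adjusted p = 0.00892 and 0.0188 by edgeR). Esrra, a nuclear receptor that activates respiratory genes, rose by 0.99 in lean and by 0.42 in obese tumors (adjusted p = 0.000178 and 0.0385 by edgeR). The coactivator Ppargc1a, at -0.16 and -0.25, did not pass the test, and Ppargc1b fell by 0.81 and 0.74 (adjusted p = 0.0271 and 0.0443 by edgeR). All 15 proliferation genes fell in both hosts, among them Mki67, by 1.62 in lean and 1.70 in obese tumors (adjusted p = 0.000846 and 0.000765 by edgeR).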

How the data were processed

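RNA of 16 B16F10 tumors, 4 in each of 4 groups taken from the sample labels, had been sequenced as stranded, poly(A)-selected paired reads. The authors trimmed the reads with Trimmomatic, aligned them to mm10 with HISAT2 2.1.0 and quantified genes with StringTie 2.1.3b, and deposited read counts per gene that are whole numbers and not normalized, with TPM and FPKM values beside them, per the submitters' processing notes and the paper. Whether strand was used in counting is not given in the sources used here. FPKM values deposited by the authors were not used, and TPM values deposited by the authors gave levels per length and an alternative.

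Of 45777 genes, 29568 had no read in at least 1 tumor and were left out. The remaining 16209 were scaled by TMM and tested with edgeR 4.0.16 (R 4.3.3; quasi-likelihood, all 16 tumors, a mean per group, Benjamini-Hochberg adjustment), and a gene was called at an adjusted p under 0.05. Standard errors came from the fold change and the F statistic. CPM values are TMM-scaled, and mean log2 CPM used a prior count of 2. The labels do not say whether the 4 tumors of a group came from separate mice, so p-values measure only the spread between these samples.

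The genes, the lists of related genes and the rule for named genes were chosen with earlier results of these data known. Genes named with values were taken from the 3 largest rises and falls among the calls of each comparison, the 3 highest and lowest TPM, Mrps18a, Mrps18b, Mrps18c, Mrpl12, Mrps12 and Mrps36, and per related list the largest rise and fall, with Tufm, Polrmt, Myc, Nrf1, Ppargc1a and Ppargc1b. Others (Mrps26, Mrpl39, Mrpl9, Mrpl46, Mrps11, Mrpl43 and members of counts) were named after their values were seen, and the motifs, head-to-head pairs and length bins were chosen after the calls were seen. Alternatives were DESeq2 1.42.0 and its size factors, limma-voom and limma 3.58.1 on log2(TPM + 1), edgeR's exact test on counts plus 1, other filters, TMM without the 37 genes of mitochondrial DNA, only the groups compared, a replicate block, a prior count of 0.5 and each tumor left out. TPM centred on the median gene and marker levels as covariates were added after seeing the data. The tests were tested on simulated data. Coordinates and promoters are from RefSeq, GRCm38.p6, the assembly named mm10.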

Additional observations from a re-analysis of the deposited data

Results flagged for a closer look

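In 7 of 84 groups of 4 tumors examined (21 genes in 4 groups) 1 tumor stood apart from the other 3, with a gap to its nearest neighbour, divided by the whole range, above Dixon's critical value at the 95% level, which chance passes in about 1 in 20 groups. The ratio was 0.896 for Mrps24 in lean tumor 2 after ETS (86.2 CPM, against 59.3 for the next tumor), 0.893 for Mrpl42 in lean tumor 3 before therapy (54.4 CPM) and 0.885 for Mrps36 in lean tumor 1 before therapy (27.3 CPM). It was 0.849 for Mrpl18 in lean tumor 3 after ETS (48.8 CPM), 0.847 for Mrps12 in obese tumor 3 before therapy (33.6 CPM), 0.867 for Mrpl30 in obese tumor 3 after ETS (83.4 CPM) and 0.845 for Mrpl35 in obese tumor 1 after ETS (27.3 CPM).

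By edgeR's interaction test, 19 of the 78 genes had unlike ETS effects in the hosts. Among the genes described, the log2 effect in lean minus that in obese tumors was 0.733 for Mrps24 (adjusted p = 0.0174), 0.70 for Mrps21 (adjusted p = 0.00755), 0.696 for Mrpl34 (adjusted p = 0.0118) and 0.671 for Mrpl42 (adjusted p = 0.00654). It was 0.580 for Mrpl53 (adjusted p = 0.0136), 0.568 for Mrps36 (adjusted p = 0.0194), 0.506 for Mrpl13 (adjusted p = 0.0217) and 0.468 for Mrpl30 (adjusted p = 0.0167).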

How the results depend on the processing

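On log2(TPM + 1) with limma, 4 genes rose in lean tumors (5.13%, against 8.33% of all tested genes) and 23 fell (29.5%, against 44.9%). The median there was -0.15. In obese tumors 1 rose (1.28%, against 15.9%) and 36 fell (46.2%, against 20.6%). For the difference 3 were higher (3.85%, against 1.41%) and 1 lower (1.28%, against 13.8%), at a median of 0.076. Before therapy 7 were higher (8.97%, close to the 6.95% of all tested genes), at a median of 0.12. After ETS 0 were lower (against 0.79%), at a median of 0.031. Mrpl53, Mrps12 and Mrps36 were then at -0.026, -0.092 and -0.059 in lean tumors, and the mean level differed by -0.16 after ETS in lean tumors and by 0.030 between hosts after ETS. TPM centred on the median gene was chosen after seeing the data. With it 46 rose in lean tumors (59%, against 41.1% of all tested genes), at a median of 0.34, against 0.21 for all tested genes. In obese tumors 1 rose (1.28%, against 18.9%). The difference was called higher for 48 (61.5%, against 21.1%), at a median of 0.48, against 0.25 for all tested genes. Before therapy 42 were higher (53.8%, against 21.8%) and after ETS 2 were lower (2.56%, against 3.44%). With the macrophage level as a covariate, also added later, 0 rose (against 5.8% of all tested genes) and 9 fell (11.5%, against 7.38%) in obese tumors, at a median of -0.26. In that fit 0 differed between hosts (against 0.148% higher and 0.617% lower, median 0.54). Before therapy 10 were higher (12.8%, against 4.32%), and 0 were lower after ETS (against 0.0617%). With the melanocyte level 17 rose in lean tumors (21.8%, against 17.4%). In obese tumors 0 rose (against 15.9%), and 0 were lower after ETS (against 0.191%). The cause was not tested. limma-voom called 1 fall in lean tumors (1.28%, against 27.8% of all tested genes) and 5 rises in obese tumors (6.41%, against 21.2%). It called 42 genes higher before therapy (53.8%, against 19.1%) and 0 lower after ETS (against 2.15%). DESeq2 called 3 lower after ETS (3.85%, against 5.88%). Without the mitochondrially encoded genes in the scaling 1 gene fell in lean tumors (1.28%, against 23.6% of all tested genes). With only the groups compared 2 fell (2.56%, against 22.3%) and 0 were lower after ETS (against 0.105%). Without exclusion or with filterByExpr 1 rose in obese tumors (1.28%, against 10.9% and 19.9%). The exact test and the fit of only the groups compared do not apply to the difference between hosts. Without each tumor in turn, 17 to 35 genes rose and 0 to 2 fell in lean tumors (median 0.16 to 0.26), and 0 to 5 rose and 16 to 26 fell in obese tumors (median -0.18 to -0.09). In the same fits 16.8% to 21.6% of all tested genes rose and 18.5% to 25% fell in lean tumors. In obese tumors 15.9% to 22% rose and 13.3% to 19.5% fell. The difference was called for 10 to 27 genes (median 0.28 to 0.41), 18 to 31 were higher before therapy (median 0.18 to 0.30), and 0 to 1 were lower after ETS (median -0.14 to -0.05). Of all tested genes 3.64% to 8.42% passed in favour of lean tumors. Before therapy 9.55% to 13.7% were higher, and after ETS 0.468% to 3.14% were lower. The low ends came without lean tumor 2 after ETS (17 rises, and 11 genes for the difference) and without lean tumor 4 before therapy (10 for the difference), and the tumors behind the calls lost in obese hosts and after ETS stand beside those results. Replicate numbers are shared between groups, and same-numbered tumors deviated with correlations of -0.112 to 0.452 (mean 0.126). For tumors with different numbers the correlations were -0.583 to 0.505 (mean -0.0417). Of 16 tumors, 7 correlated best with their own number. Whether the numbers mark a shared replicate effect was not tested, and same-numbered tumors were not taken as pairs. With the replicate block 30 genes rose (38.5%, against 22.9% of all tested genes) and 1 fell (1.28%, against 25%) in lean tumors. After ETS 2 were lower (2.56%, against 4.94%). Over 36 results on named genes, 914 of 1028 recomputed values kept their direction and their side of the threshold, 111 kept only the direction and 3, those named above, reversed.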
